A study of Rattus norvegicus with 8 samples.

Results

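Elastic fibers let a stretched tissue recoil. They consist of a core of cross-linked elastin within a mantle of fibrillin microfibrils, and the fibulins and microfibril-associated proteins join the 2 parts and help elastin to assemble. In tendon they lie mostly between the fascicles and around the cells, and elastin itself is known for a very slow turnover. To examine how this system stood at the end of a run, 10 genes were taken by their symbols from the deposited expression table of the rat Achilles tendon, namely Eln, Fbn1, Fbn2, Fbln1, Fbln2, Fbln5, Efemp1, Efemp2, Mfap4 and Mfap5. Of these 10 genes, 9 had a row among the 15590 genes of the table and 8 were among the 13863 genes expressed highly enough to be tested. Mfap4 was not analysed here, and Fbn2 was under the filter.

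The tissue came from the right legs of wild-type male Sprague-Dawley rats of 8 to 10 weeks. Polyadenylated RNA of 4 rats killed immediately after 1 h of running on an inclined treadmill (0 h p.r., post-run) was compared with that of 4 naïve controls that did not run (NC). An air stream, and a weak current when a rat left the belt, kept the animals moving. Neither can be told apart from the running itself. In the treadmill cohort of the study the controls were killed together with a later post-run group, and whether this held for the sequenced rats is not given in the sources used here. All values are FPKM (fragments counted per unit of transcript length and of library size, further scaled between libraries), so levels may be compared between genes. A gene was called when its limma adjusted p was under 0.05 and its fold change was at least 2, the thresholds of the study.

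The libraries held 10660131 to 17464752 reads in the listed genes. All 8 tenocyte markers with a row were detected in every library, with a summed level of 3777 to 7451 FPKM in NC and 4154 to 7450 in 0 h p.r., led by Col1a1. Other tissues were also present. The 8 skeletal muscle markers summed to 4672 to 6776 FPKM in NC, against 28427, 4954, 13281 and 898 in replicates 1 to 4 of 0 h p.r. The 8 adipocyte markers summed to 3035 to 6072 FPKM in NC and 1007 to 2222 in 0 h p.r., so the groups did not overlap, and 5 of them fell at a limma adjusted p under 0.05. The 7 cartilage markers summed to 16.5 to 102 FPKM in NC and 104 to 401 in 0 h p.r. without overlap, with Col10a1 at 0 in at least 1 library, and none of the 6 tested passed the adjusted p. The 7 bone markers summed to 11.5 to 57.6 and 53.6 to 176 FPKM, with Bglap, Sost and Sp7 at 0 in at least 1 library, and 1 of the 5 tested rose at an adjusted p under 0.05. Of the 7 tested endothelial markers only 1 was higher in 0 h p.r., and it passed the adjusted p. The smooth muscle markers summed to 2104 to 2700 FPKM in NC and 2239 to 3374 in 0 h p.r. Of the 9 tested, 8 were higher and none passed the adjusted p. Among all tested genes 5.72% had an adjusted p under 0.05. For sums of several genes no share without overlap is given here. The part that these tissues had in the results below was not tested, and in such bulk tissue fewer cells of a type cannot be told apart from less RNA per cell.

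None of the elastic fiber genes passed the test between the groups. Of the 8 tested members 0 were called in limma, where 2.7% of all tested genes were called. At any fold, 0 had an adjusted p under 0.05 against 5.72% of all tested genes, and 0 had an unadjusted p under 0.05 against 22.6%. limma's voom on recovered reads also called 0. The values of the groups overlapped for each of the 8 genes, whereas they did not overlap for 15.6% of the tested genes. The mean log2 level was higher in 0 h p.r. for 3 members and lower for 5, with a median log2 fold change of -0.049 and adjusted p-values of 0.489 to 0.943. The median of all tested genes was -0.0014. Under quantile scaling the split was 2 higher and 6 lower, with medians of -0.16 for the members and -0.027 for all tested genes. Leaving out single libraries gave 3 to 5 members higher and medians of -0.14 to 0.046.

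**Figure D1:**
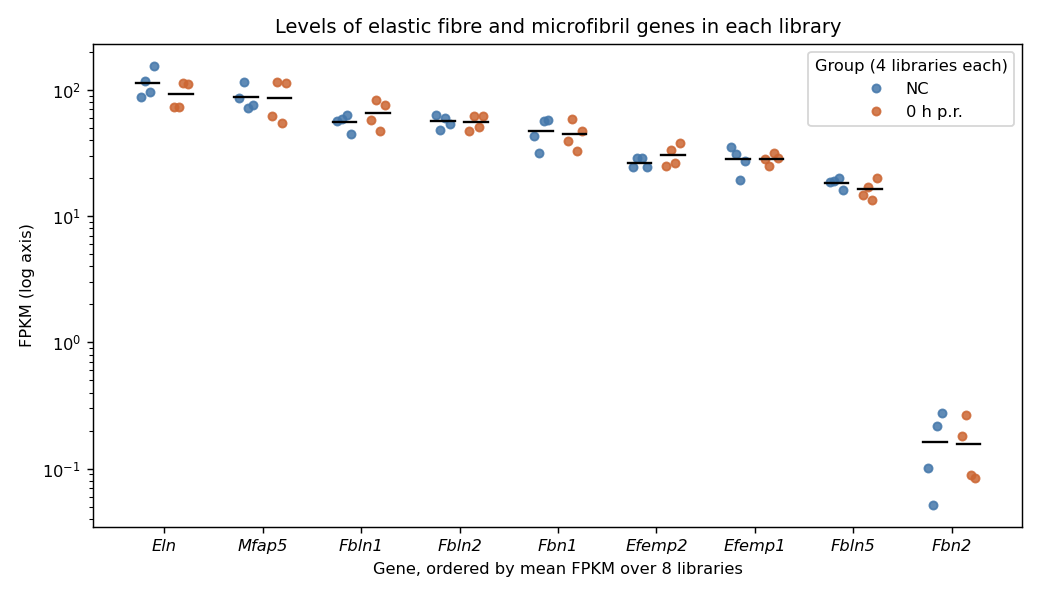
FPKM (log axis) of the 9 listed genes in each of 4 NC (blue) and 4 0 h p.r. (orange) libraries, with a black line at each group's mean. The groups overlap for every gene, and Fbn2 lies far below the other members at 0.0517 to 0.275 FPKM.

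Eln (ENSRNOG00000001469), which encodes tropoelastin, the monomer of the elastic core, was the member with the highest mean level. Its FPKM was 88.1, 117, 96.0 and 155 in the NC libraries and 72.7, 73.3, 114 and 111 in 0 h p.r. The 2 lowest values were those of 0 h p.r. replicates 1 and 2, and the highest was that of NC replicate 4, while the remaining 5 libraries were mixed. The mean was 114 ± 29.8 for NC against 92.7 ± 22.8 for 0 h p.r. (SD, n = 4). The log2 fold change of -0.29 (SE 0.23, limma adjusted p 0.498) was the largest of the 8 tested members in size, but not in 3 of the 8 fits with a library omitted. It was -0.14 without NC replicate 4 (Fbln5 -0.25), -0.19 without 0 h p.r. replicate 1 (Efemp2 0.28) and -0.19 without 0 h p.r. replicate 2 (Mfap5 -0.24). Its 95% interval ran from -0.80 to 0.21, which corresponds to 0.573-fold to 1.16-fold.

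The fibrillins form the backbone of microfibrils, which carry elastin and also store latent TGF-β. Fbn1 (ENSRNOG00000007302), the main fibrillin gene of adult tissue, stood at 43.5, 31.5, 56.4 and 57.8 FPKM in NC and at 39.3, 59.3, 32.8 and 47.4 in 0 h p.r. The lowest value was found in NC and the highest in 0 h p.r. The mean was 47.3 ± 12.4 for NC against 44.7 ± 11.4 for 0 h p.r. (SD, n = 4), with a log2 fold change of -0.076 (SE 0.24, 95% interval -0.61 to 0.46, limma adjusted p 0.899).

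Fbn2 (ENSRNOG00000043219), a fibrillin gene used mainly during development, had few reads. Its recovered reads numbered 14, 4, 25 and 32 in the controls against 19, 38, 9 and 12 after running, or 0.0517 to 0.275 FPKM in NC and 0.0851 to 0.268 in 0 h p.r. Reads were found in every library, at a level far below Fbn1, and the values of the groups overlapped. Its coefficient of variation was 63.8% among the controls against 55.6% after running, and in the limma fit without the filter its adjusted p was 0.987.

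Fbln5 and Efemp2 encode short fibulins that bind tropoelastin and bring it to microfibrils, and Efemp2 also binds lysyl oxidase. Fbln5 (ENSRNOG00000050539) was at 18.65, 19.07, 19.97 and 16.18 FPKM in NC and at 14.72, 17.003, 13.45 and 19.95 in 0 h p.r. Replicates 1 and 3 of 0 h p.r. lay below all NC libraries, and replicates 2 and 4 lay within their range, the latter just under the highest control. The means were 18.5 ± 1.62 and 16.3 ± 2.86 (SD, n = 4), and the log2 fold change of -0.19 (SE 0.14, 95% interval -0.51 to 0.13) had the lowest limma adjusted p among the members, 0.489.

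Efemp2 (ENSRNOG00000020587) leaned the other way. Its FPKM was 24.5, 28.8, 28.7 and 24.3 in NC against 25.0, 33.5, 26.4 and 38.1 in 0 h p.r. Only replicates 2 and 4 of 0 h p.r. exceeded every control. The log2 fold change was 0.19 (SE 0.15, 95% interval -0.15 to 0.54, limma adjusted p 0.517), with means of 26.6 ± 2.49 and 30.7 ± 6.13 (SD, n = 4).

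Efemp1 (ENSRNOG00000003553), whose product is the third short fibulin, had 35.1, 31.1, 19.3 and 27.5 FPKM in NC and 28.5, 25.1, 31.9 and 28.9 in 0 h p.r. All post-run values fell within the range of the controls. The means of 28.3 ± 6.76 and 28.6 ± 2.77 (SD, n = 4) gave a log2 fold change of 0.045 (SE 0.18, 95% interval -0.36 to 0.45, limma adjusted p 0.923).

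The longer fibulins, encoded by Fbln1 and Fbln2, bind elastin, fibronectin and proteoglycans. Fbln1 (ENSRNOG00000014137) had 56.5, 59.2, 63.0 and 44.4 FPKM in NC and 57.9, 83.3, 47.0 and 76.4 in 0 h p.r. Again replicates 2 and 4 of 0 h p.r. lay above all controls and the other 2 did not. The means were 55.8 ± 8.05 and 66.2 ± 16.7 (SD, n = 4), a log2 fold change of 0.22 (SE 0.20, 95% interval -0.22 to 0.66, limma adjusted p 0.569). Fbln2 (ENSRNOG00000007338) had 63.2, 47.8, 59.9 and 54.0 FPKM in NC and 47.2, 61.9, 50.6 and 61.6 in 0 h p.r. Its log2 fold change of -0.025 was the smallest in size (SE 0.14, 95% interval -0.34 to 0.29, limma adjusted p 0.943), with means of 56.2 ± 6.81 and 55.3 ± 7.55 (SD, n = 4).

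Mfap5 (ENSRNOG00000015505) encodes a small glycoprotein of microfibrils. Within 0 h p.r. its coefficient of variation was the highest of the 8 tested members. Its level was 86.3, 116, 72.4 and 75.9 FPKM in NC and 62.5, 116, 54.9 and 113 in 0 h p.r. The post-run libraries split into 2 near the highest control and 2 below all controls, with means of 87.6 ± 19.7 and 86.5 ± 32.2 (SD, n = 4). The log2 fold change was -0.074 (SE 0.27, 95% interval -0.69 to 0.54, limma adjusted p 0.917).

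How large a difference these data could have missed was read from the intervals. The 95% interval lay within a 2-fold change in both directions for 8 of the 8 tested members, and for 78.3% of all tested genes. Within a 1.5-fold change lay the intervals of 4 members, Fbln2, Fbln5, Efemp1 and Efemp2, and 39.3% of all tested genes. The intervals of Eln, Fbn1, Fbln1 and Mfap5 reached past a 1.5-fold difference in at least 1 direction. Given the standard errors, the log2 fold change needed for an adjusted p under 0.05 ran from 0.56 for Fbln2 to 1.10 for Mfap5, and that of Eln was 0.91. The median absolute log2 fold change was 0.13 for the tested members and 0.22 for all tested genes, and the median standard error was 0.19 and 0.18.

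**Figure D2:**
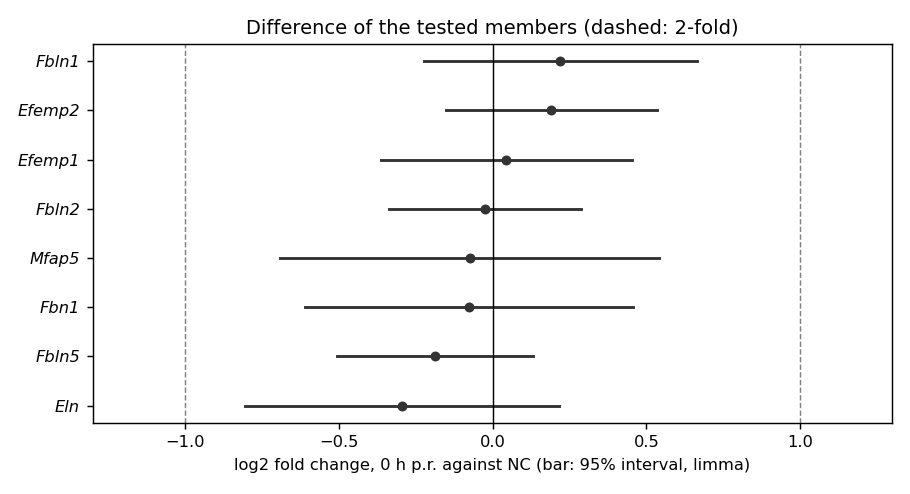
Log2 fold change of 0 h p.r. against NC for the 8 tested members (points) with its 95% interval from limma (bars, 4 libraries per group), on the log2(FPKM + 0.5) scale. Every bar crosses 0 and ends inside the dashed lines that mark a 2-fold change.

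The levels of the members relative to each other were compared next, because FPKM is given per length. On average over the 8 libraries the order was Eln (103 FPKM), Mfap5 (87.0), Fbln1 (61.0), Fbln2 (55.8), Fbn1 (46.0), Efemp2 (28.7), Efemp1 (28.4), Fbln5 (17.4) and Fbn2 (0.159). Several neighbors could not be placed in order. Fbln1 exceeded Fbln2 in 5 of 8 libraries, Efemp2 exceeded Efemp1 in 3 of 8, and Eln exceeded Mfap5 in 6 of 8. By contrast, Mfap5 lay above Fbln1, Fbn1 above Efemp2 and Fbln5 above Fbn2 in 8 of 8 libraries. The mean log2 level of Eln was higher than that of 95.2% of all tested genes, and that of Fbln5, the lowest of the tested members, was higher than that of 70.9%.

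A further question was whether the balance between the components shifted. The log2 ratio of each other tested member to Fbn1 was therefore compared between the groups. That of Eln was 1.26 ± 0.49 for NC against 1.05 ± 0.62 for 0 h p.r. (SD, n = 4, difference -0.22, exact two-sided permutation p 0.60). The largest difference was that of Fbln1, at 0.26 ± 0.53 for NC against 0.56 ± 0.087 for 0 h p.r. (difference 0.30, exact permutation p 0.371). None of the 7 ratios passed the test (exact permutation p 0.371 to 1.0, Benjamini-Hochberg adjusted 0.967 to 1.0, where the smallest p that the 70 assignments allow is 0.0286).

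The spread within the groups was then examined. Among the 8 tested members the coefficient of variation within a group ran from 8.78% (Fbln5 in NC) to 37.3% (Mfap5 in 0 h p.r.). They had 428 to 10638 recovered reads per library. In 0 h p.r. the spread had a shared shape. Replicates 2 and 4 held the 2 highest values for 6 of the 8 members, namely Fbn1, Fbln1, Fbln2, Fbln5, Efemp2 and Mfap5. The same holds for 24.7% of all tested genes. With 17044547 and 17464752 reads, replicates 2 and 4 were also deeper than replicates 1 and 3 (14636662 and 12735596). The part of depth was not tested. The pattern of the 6 members was noticed after the values were seen and has no test.

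Eln and Efemp1 did not follow it. In 0 h p.r. Eln was highest in replicates 3 and 4, and Efemp1 was lowest in replicate 2. In NC the pair of replicates most often on top was 2 and 3, for 3 of the 8 members (Fbln1, Fbln5 and Efemp2) and 15.4% of all tested genes. Fbln1 and Fbln5 had the same order over the NC libraries, whereas Eln was highest in replicate 4, where Fbln1 was lowest. The 8 tested members together reached 416, 450, 416 and 455 FPKM in NC against 348, 469, 371 and 496 in 0 h p.r., again with replicates 2 and 4 on top.

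Of the 10 marker lists, 9 had sums that split replicates 2 and 4 of 0 h p.r. from replicates 1 and 3, in one direction or the other. For a split in either direction no share of all tested genes is given here, so the count has no background. The exception was the adipocyte list, at 1007, 1469, 1818 and 2222 FPKM in replicates 1 to 4. The skeletal muscle markers were highest in replicates 1 and 3 (28427 and 13281 FPKM against 4954 and 898). The summed macrophage markers were 387 and 429 FPKM in replicates 2 and 4 and 227 and 234 in replicates 1 and 3, and tenocyte markers were 7155 and 7450 against 6323 and 4154. Those of universal fibroblasts were 555 and 672 against 496 and 490. In the smooth muscle list, a cell type that makes elastin in vessels, the sums were 2384 and 2239 in replicates 2 and 4 and 3120 and 3374 in replicates 1 and 3. The endothelial list showed a like split, with 481 and 447 against 548 and 547 FPKM. The mesothelial and synovial markers, led by Prg4, were 820 and 1071 against 397 and 637, the cartilage markers 287 and 401 against 164 and 104, and the bone markers 107 and 176 against 64.1 and 53.6. The part of tissue composition in the spread of the members was not tested.

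**Figure D3:**
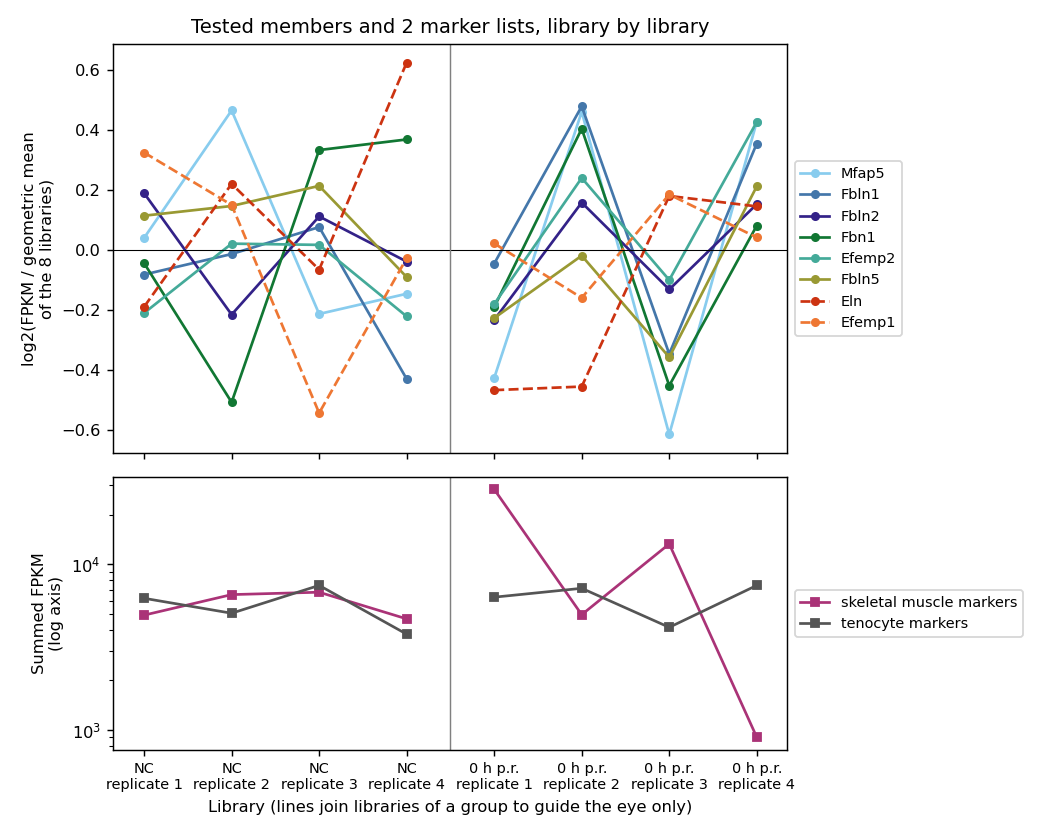
Upper panel: level of each tested member in each library as log2 of its FPKM over its geometric mean in the 8 libraries, with solid lines for the 6 genes that were highest in 0 h p.r. replicates 2 and 4 and dashed lines for Eln and Efemp1. Lower panel: summed FPKM (log axis) of the skeletal muscle and tenocyte markers in the same libraries, where muscle spans 898 (replicate 4) to 28427 (replicate 1) after running.

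Promoter sequence is shown for 3 members, chosen after the values were seen, to show the regulatory sequence of genes with different patterns over the post-run libraries. Of the tested members, Mfap5 had the highest coefficient of variation within the post-run group (37.3%) and Fbln2 a lower one (13.7%), while both were highest in replicates 2 and 4, and Efemp1 was a member outside that pattern. RefSeq (build GRCr8, a later build than that of the expression table) was the source, and the table of promoters used here matched 7 of the 10 genes, without Eln, Fbln1 and Mfap4. The 250 bases before the annotated start were searched on both strands for TATAAA (the site of TBP), TGANTCA (AP-1), TGACGTCA (CRE), CAGACA (SMAD), CCAAT (the site of NF-Y) and GGGCGG (Sp1), and capitals mark the matches, which may overlap. They lie at chr4:157399669-157399918 (plus strand) for Mfap5, chr4:125261409-125261658 (plus strand) for Fbln2 and chr14:106811614-106811863 (plus strand) for Efemp1.
Mfap5: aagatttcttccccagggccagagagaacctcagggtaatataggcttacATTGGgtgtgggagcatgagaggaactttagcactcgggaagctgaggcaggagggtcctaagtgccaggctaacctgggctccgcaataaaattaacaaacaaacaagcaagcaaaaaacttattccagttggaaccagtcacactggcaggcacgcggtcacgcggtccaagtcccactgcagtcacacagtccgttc
Fbln2: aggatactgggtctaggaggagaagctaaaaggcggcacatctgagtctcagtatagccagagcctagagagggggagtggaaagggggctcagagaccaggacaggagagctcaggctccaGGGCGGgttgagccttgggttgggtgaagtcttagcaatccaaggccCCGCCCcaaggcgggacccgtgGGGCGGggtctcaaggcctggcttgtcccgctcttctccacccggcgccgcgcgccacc
Efemp1: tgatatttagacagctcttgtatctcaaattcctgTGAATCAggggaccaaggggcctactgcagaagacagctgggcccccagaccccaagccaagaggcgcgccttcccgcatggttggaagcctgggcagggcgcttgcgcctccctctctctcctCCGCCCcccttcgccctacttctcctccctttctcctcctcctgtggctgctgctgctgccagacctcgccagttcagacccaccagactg

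The Fbln2 window had a GC content of 64.0% and held only GGGCGG, which 30.5% of all 33469 promoter windows hold. That of Mfap5 had 51.6% GC and held only CCAAT, found in 34.0% of all windows. Efemp1 held GGGCGG and was the only one of the 7 members with the AP-1 letters, which occur in 6.34% of all windows. None of the 7 held TATAAA (12.9% of all windows) or TGACGTCA (1.59%), and Fbn1 alone held CAGACA (17.2%). These matches describe letters and not bound sites.

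To place the members in their pathway, 52 further genes were listed. The table held 47 of them, and 44 were tested. In limma 0 of the 44 passed both thresholds, against 2.7% of all tested genes, and voom also gave 0. An unadjusted p under 0.05 was found for 6, where 22.6% of all tested genes had one, and 1 had an adjusted p under 0.05, which is 2.27% where the background was 5.72%. The mean log2 level was higher in 0 h p.r. for 25 and lower for 19, with a median log2 fold change of 0.032. The groups did not overlap for 3 genes (15.6% of all tested genes), Itga5, Itgb1 and Lox, each higher in 4 of 4 post-run libraries.

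The gene with an adjusted p under 0.05 was Itga5, which encodes the integrin subunit that pairs with the product of Itgb1 to bind RGD sites in fibronectin and fibrillin. Its FPKM was 39.4, 30.3, 37.0 and 50.3 in NC against 56.8, 60.1, 57.4 and 63.6 in 0 h p.r. Every post-run library lay above every control, and the post-run values were tight. Itga5 rose by 0.62 on the log2 scale (SE 0.15, 95% interval 0.27 to 0.96, limma adjusted p 0.0493), from 39.3 ± 8.33 to 59.5 ± 3.12 FPKM (SD, n = 4). The fold was under 2, so that Itga5 was not called, and its adjusted p stood at the edge of the threshold. It stayed under 0.05 in 5 of 18 other settings (adjusted p 0.0239 to 0.385), of which 1 was among the 8 fits with a library omitted (without NC replicate 4). Of the 11 genes of the elastin receptor and integrin list, 8 had a higher and 3 a lower mean log2 level, with a median of 0.098. Itgb1 had a log2 fold change of 0.23 (limma adjusted p 0.314).

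The cross-linking list comprised the lysyl oxidases, which join elastin and collagen chains, with the copper transporter gene Atp7a and the procollagen C-proteinase gene Bmp1. None of its 7 genes passed. Lox, the main lysyl oxidase gene, had the largest value, at 29.8, 50.8, 48.9 and 43.4 FPKM in NC and 60.6, 84.3, 56.3 and 129 in 0 h p.r. The lowest post-run library stood above the highest control, and replicate 4 stood far above the other 3. Its means were 43.2 ± 9.48 and 82.6 ± 33.4 (SD, n = 4), with a log2 fold change of 0.88 (SE 0.28, 95% interval 0.25 to 1.497, limma adjusted p 0.0987, 0.0398 to 0.254 in other settings). Atp7a, which loads lysyl oxidases with copper, had a log2 fold change of 0.58 (limma adjusted p 0.124), and Loxl3 had 0.29 (0.694). The median of the list was 0.015, and Loxl1, the oxidase most tied to elastic fibers, was at 19.7 ± 2.80 and 20.5 ± 6.39 FPKM (SD, n = 4, limma adjusted p 0.980).

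Of the 21 tested microfibril partners, 10 had a higher and 11 a lower mean log2 level, none passed, and the median log2 fold change was -0.061. The largest values were those of Vcan (0.91, limma adjusted p 0.101), the gene of a large proteoglycan that binds fibrillin and fibulins, Adamts6 (0.68, 0.152) and Hmcn1 (0.63, 0.185). Vcan was at 6.54, 5.55, 10.2 and 9.96 FPKM in NC and 9.88, 17.3, 12.7 and 24.1 in 0 h p.r., so that 3 of 4 post-run libraries exceeded all controls. Ltbp2 had the lowest value of the list, -0.45 (SE 0.39).

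Proteases that can cut elastin gave small values. Of 10 such genes 7 had a row and 5 were tested, none passed, and their log2 fold changes ran from -0.12 to 0.19. The largest in size were Ctsl (0.19, limma adjusted p 0.724), Ctss (-0.12, 0.886) and Mmp2 (-0.10, 0.838). Mmp12, the macrophage elastase gene, and Mmp9 were under the filter, with a mean of 0.465 and 0.0419 FPKM in NC and 0.520 and 0.205 in 0 h p.r. These means rest on few reads. Mmp12 had 40, 8, 1 and 3 recovered reads in NC against 16, 27, 4 and 13 in 0 h p.r. Mmp9 had 7, 0, 0 and 2 against 9, 2, 18 and 7, and the groups overlapped for each gene.

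**Figure D4:**
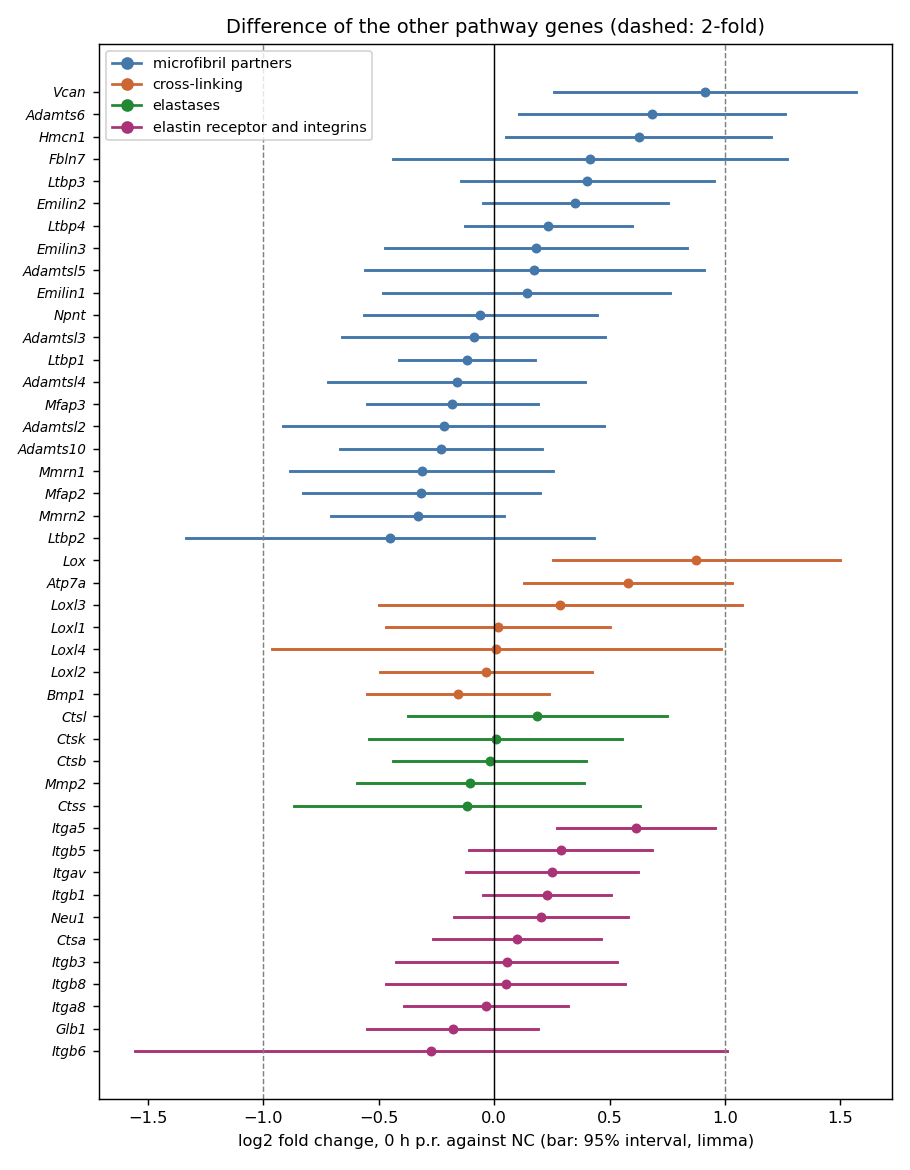
Log2 fold change of 0 h p.r. against NC with its 95% interval (limma, 4 libraries per group) for the 44 tested pathway genes, colored by list and sorted within it. The highest values are those of Vcan (0.91) and Lox (0.88), and the dashed lines mark a 2-fold change.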

How the data were processed

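Polyadenylated RNA of 8 Achilles tendons, 4 NC and 4 0 h p.r., was sequenced as stranded libraries. Per the study's methods and the submitters' processing notes, reads were aligned with HISAT2 2.1.0 to Rnor_6.0 and counted with featureCounts 1.6.3. The authors then deposited FPKM values, also scaled between libraries, beside their own DESeq2 1.30.1 fold changes and p-values, which were not used. The strand setting of the counting is not given in the sources used here.

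Whole reads, recovered from the steps of the FPKM (99.99% of 15590 genes within 0.01 reads), served as depth. Genes with at least 0.5 FPKM in at least 4 libraries were tested on log2(FPKM + 0.5) with limma 3.58.1 in R 4.3.3 (lmFit, eBayes with a trend, two-sided, no covariate, Benjamini-Hochberg over the 13863 tested genes). This scale understates the change of low genes. The script was tested on simulated data. Ratios were compared by an exact permutation test in Python 3.11.15. Replicates are labeled only by number, so p-values measure the spread between these samples.

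The members and lists were chosen with earlier results of these data known. Genes named beyond the members were, in each pathway list, those with an adjusted p under 0.05 or else the 3 with the largest change, and Itgb1, Loxl1, Ltbp2, Mmp9 and Mmp12 were named after their values were seen. Alternatives were pseudocounts of 0.1 and 1, no filter or a mean of at least 2 FPKM, quantile scaling, equal library sums, array weights, a block for the replicate number, protein-coding genes, voom on recovered reads and leaving out each library.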

Additional observations from a re-analysis of the deposited data

How the results depend on the processing

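In all 18 other settings, 0 members passed either threshold (lowest adjusted p 0.204) and 8 intervals stayed within a 2-fold change, a count chosen after seeing the data. Of all 13863 tested genes, 178 with equal library sums and 2069 with array weights had an adjusted p under 0.05, the fewest and the most. For the intervals no share of all tested genes is given here in these settings. Eln, Fbln5, Fbln1 and Efemp2 kept their direction in each, but their size moved by over 1.5 times when single libraries were left out, the furthest being Eln at -0.14 (without NC replicate 4), Fbln5 at -0.10 (without 0 h p.r. replicate 3) and -0.29 (without 0 h p.r. replicate 4), Fbln1 at 0.099 (without 0 h p.r. replicate 2) and 0.37 (without 0 h p.r. replicate 3), and Efemp2 at 0.083 (without 0 h p.r. replicate 4). Quantile scaling gave a lower value for all 8 members and moved Fbln1 to 0.13, Efemp2 to 0.12, Fbln2 to -0.14, Fbn1 to -0.19 and Mfap5 to -0.18. The members nearest to 0 did not keep their direction, and the cause was not tested: Efemp1 was at -0.029 under quantile scaling and Mfap5 at 0.081 with array weights, and when single libraries were left out Fbn1 ran from -0.26 to 0.060, Fbln2 from -0.10 to 0.047, Efemp1 from -0.12 to 0.16 and Mfap5 from -0.24 to 0.12. Pathway genes with an adjusted p under 0.05, 1 as reported, were 3 with array weights (Itga5, Lox and Atp7a), 0 with a pseudocount of 0.1, no filter, quantile scaling, equal library sums, the replicate block or voom, and 0 to 1 when a library was left out (1 without NC replicate 4). The 3 of 44 with array weights stand beside 2069 of all 13863 tested genes, against 793 in the fit reported above. The deviations of same-numbered libraries from their group means correlated at -0.14, -0.071, 0.072 and 0.0056. Those of differently numbered libraries ran from -0.25 to 0.23, so no pairing by number was seen. Whether same-numbered libraries shared a batch was not tested. Fbn2 had 4 to 38 reads per library, and each group had 4 libraries.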
